A study of Mus musculus with 4 samples.

Results

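The Eph receptor and ephrin genes described here are 10 genes, named by symbol: the receptors Epha3, Epha4, Epha5, Epha7, Ephb1 and Ephb2 and the ligands Efna2, Efna5, Efnb1 and Efnb2. Their entries were taken from 2 lists of Sp9 peaks that name 6474 genes in all. Sp9, a DNA-binding protein with zinc fingers that belongs to the SP/KLF family, is present in the ganglionic eminences and in immature neurons of the striatum. Where it binds was measured by chromatin immunoprecipitation and sequencing (ChIP-seq) with a rabbit Sp9 antibody, in the basal ganglia of CD1 embryos of wild-type mice at embryonic day 16.5 (E16.5) and embryonic day 13.5 (E13.5). Each stage had 1 ChIP library and 1 input library without antibody, and the inputs enter here only through the authors' peak calling. Of the 10 genes, 9 had at least 1 assigned peak at E16.5, and the same 9 had at least 1 at E13.5; Efna2 had none in either list.

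Eph receptors are receptor tyrosine kinases, and ephrins are their ligands on the surface of neighbouring cells. Ephrins of the A class are held in the membrane by a lipid anchor and those of the B class span it, so contact can signal into the receptor cell and, in reverse, into the ligand cell. The outcome is often repulsion or sorting of cells. In the developing striatum the family is known for the separation of matrix and striosome neurons and for steering migrating interneurons and growing axons.

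The lists held 6022 peaks at E16.5 and 5847 at E13.5. A peak is given as a number and a signed distance (bp) to the transcription start site (TSS) of each gene to which the authors assigned it, on the mouse mm9 build. Chromosome position, height, width, fold and read totals are not in the values used here, so the depth is unknown, and a peak's place in an exon or intron was not analysed here. Nor do the lists measure RNA: a peak says nothing of whether the gene was active, and the labelled tissue could not be checked against marker RNA. With 1 ChIP library per stage no difference between stages has a replicate check, and no test was made. A gene without an assigned peak had none past the authors' threshold in the domain they gave it. Weaker binding is undetected, and a called peak nearby may have been assigned to neighbouring genes only.

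Sp9 peaks assigned to these genes were mostly far from the promoter, and more of them were in the E13.5 list, chiefly at EphA receptors. The 9 genes held 29 distinct peaks at E16.5 and 43 at E13.5. The 4 EphA receptors held 16 at E16.5 and 29 at E13.5, the 2 EphB receptors 3 and 4, and the ephrins 10 at each stage. The ratio of E16.5 to E13.5 peaks was 0.674 for the 10 genes and 0.759 without Epha4, against 1.03 for the whole lists. Among peaks more than 50 kb from their nearest listed TSS, that ratio was 0.714 for these genes, 0.760 without Epha4 and 0.795 for the whole lists. Far peaks were thus fewer at E16.5 in the lists as a whole too. Any assigned peak was held by 23.6% of protein-coding genes at E16.5 and by 20.7% at E13.5.

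**Figure D1:**
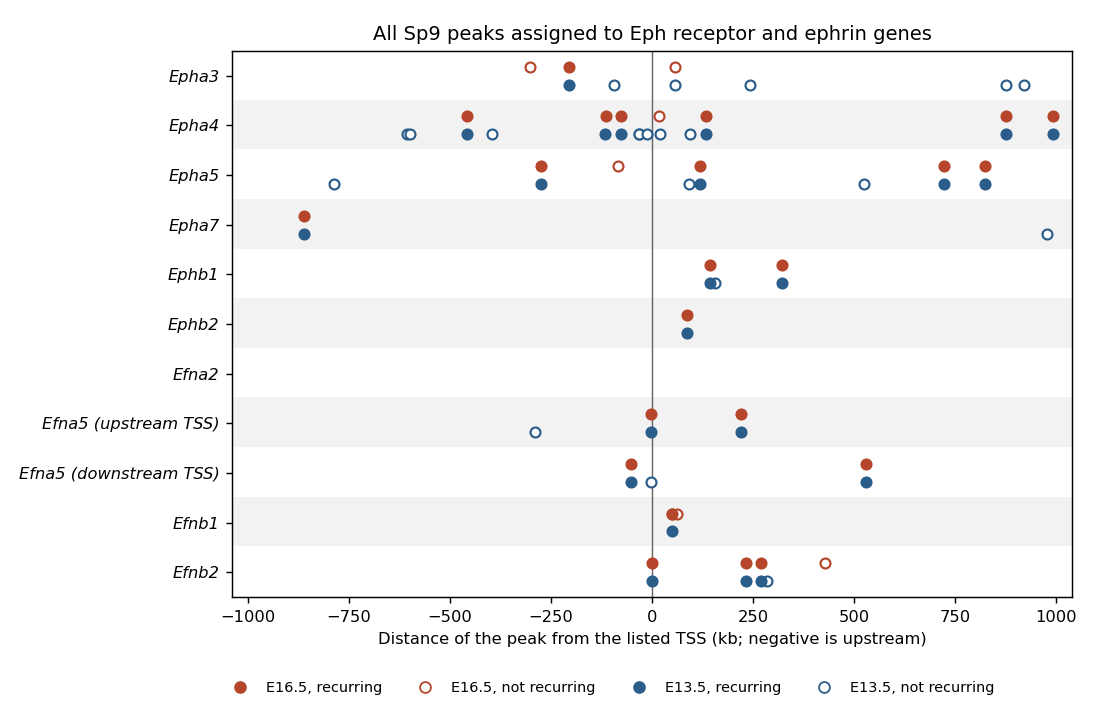
Each point is 1 Sp9 peak, placed by its signed distance in kb from the TSS of the gene in that row (negative is upstream), with E16.5 above E13.5 in every row. Filled points recur in the other list within 200 bp and open points do not; 22 points of each stage are distinct recurring peaks, the peak that lies between the 2 listed TSSs of Efna5 being drawn in both of its rows, and Efna2 is empty.

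Peaks were called recurring when a peak of the same TSS stood in the other list at a distance no more than 200 bp different. So defined, 22 of the 29 E16.5 peaks recurred (75.9%, 95% Wilson interval 57.9 to 87.8), as did 22 of the 43 E13.5 peaks (51.2%, 36.8 to 65.4). In the whole lists 56.2% of E16.5 peaks and 57.9% of E13.5 peaks recurred. Among peaks more than 50 kb from any listed TSS, 19 of 25 peaks of these genes recurred at E16.5 (76.0%) and 19 of 35 at E13.5 (54.3%), against 70.9% and 56.3% of all such peaks. Without Epha4, left out after the data were seen, 16 of 22 peaks recurred at E16.5 (72.7%, 51.8 to 86.8). At E13.5, 16 of 29 did (55.2%, 37.5 to 71.6). Intervals cover counting error only, and peaks of 1 gene are not independent, so the intervals are no test against the whole lists. The 22 recurring pairs differed in position by 1 to 196 bp, with a median of 27.0 bp. All but 2 lay within 100 bp of each other.

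**Figure D2:**
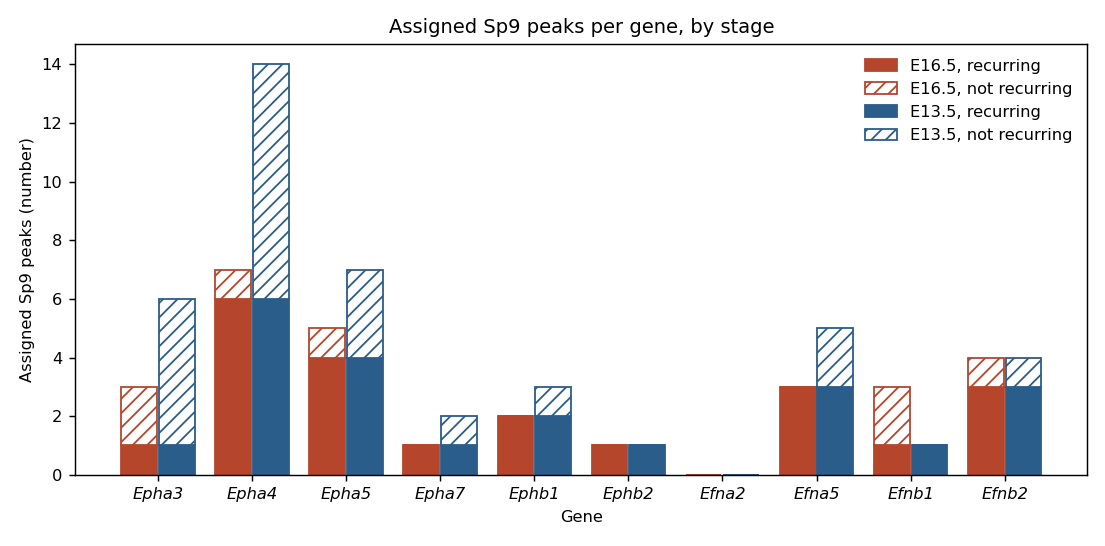
Bars give the number of assigned Sp9 peaks of each gene, E16.5 on the left and E13.5 on the right of each pair, with recurring peaks solid and the others hatched. Epha4 has 7 peaks at E16.5 and 14 at E13.5, and the solid parts are of equal height at the 2 stages in every gene.

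Among the EphA receptors, Epha4 had the most peaks. Epha4 encodes a receptor known to bind ephrins of both classes. It held 7 peaks at E16.5 and 14 at E13.5. Counting Epha4 itself, 120 protein-coding genes (0.548%) had 7 or more peaks at E16.5, and 19 (0.0868%) had 14 or more at E13.5. These counts take in every assigned peak and can depend on how closely genes are spaced, which was not tested. The E16.5 peaks of Epha4 lay 457287, 115032 and 77227 bp upstream and 18124, 134697, 877566 and 993082 bp downstream. Among the E13.5 peaks, those at 457333, 115080 and 77324 bp upstream and at 134720, 877567 and 992990 bp downstream were the recurring ones. The 6 recurring peaks of Epha4 were all more than 50 kb from its TSS.

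Nearer to the Epha4 TSS the lists differed. Within 50 kb the E16.5 list had only the peak 18124 bp downstream, while the E13.5 list had peaks 31829, 30952 and 13462 bp upstream and 19482 bp downstream. The downstream peaks of the 2 stages lay 1358 bp apart and were not counted as recurring. The upstream peaks at 31829 and 30952 bp were only 877 bp apart. The other E13.5 peaks of Epha4 without an E16.5 partner lay 605713, 599434 and 396462 bp upstream and 94183 bp downstream. Whether the missing partners were weaker or absent at E16.5 cannot be told apart without peak heights.

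Many far peaks of Epha4 were assigned to a neighbouring gene as well. Pax3, a paired-box transcription factor gene of neural crest and dorsal neural tube, shared 3 of the 7 Epha4 peaks at E16.5 and 9 of the 14 at E13.5. The shared distances place the Pax3 TSS 681750 bp from that of Epha4, farther upstream. The E13.5 peaks of Epha4 at 605713 and 599434 bp lay nearer to Pax3, 76037 and 82316 bp downstream of that gene's start, and so did those at 457333 and 396462 bp. The farthest downstream peak was shared with Slc4a3, an anion exchanger gene, from which it lay 975740 bp at E16.5 and 975832 bp at E13.5. With every peak kept only for the closest listed TSS, Epha4 held 5 peaks at E16.5 and 9 at E13.5.

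Epha3 and Epha5, receptors with ephrins of the A class as their main ligands, had peaks at 50 kb and beyond at both stages and none nearer. Epha3 held 3 peaks at E16.5, lying 302874 and 204901 bp upstream and 57425 bp downstream. At E13.5 it held 6, lying 205036 and 94256 bp upstream and 57216, 242011, 877998 and 921828 bp downstream. The pair near 205 kb upstream recurred, with a difference of 135 bp. The upstream peaks were all shared with Csnka2ip, 312116 to 520734 bp from its TSS. The pair near 57 kb downstream differed by 209 bp, just outside the 200 bp limit. The peaks 877998 and 921828 bp downstream lay nearer to Pros1, the protein S gene, 131853 and 88023 bp from its TSS.

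Epha5 held 5 peaks at E16.5 and 7 at E13.5, of which 4 recurred. The recurring E16.5 peaks of Epha5 were 274020 bp upstream and 117867, 724498 and 823893 bp downstream, and their E13.5 partners were 273991 bp upstream and 117779, 724484 and 823824 bp downstream. The nearest Epha5 peak differed between the lists: it lay 83108 bp upstream at E16.5 and 90758 bp downstream at E13.5, on opposite sides of the TSS. Further E13.5 peaks lay 787217 bp upstream, shared with Cenpc1, and 526039 bp downstream. Tecrl, which encodes a member of the reductase family, shared 3 of the peaks at E16.5 and 5 at E13.5, and the 2 farthest downstream were nearer to it.

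Epha7, a receptor for A-class ephrins, held 1 peak at E16.5, 862641 bp upstream, and 2 at E13.5, 862837 bp upstream and 978805 bp downstream. The upstream pair differed by 196 bp, just inside the limit. These peaks were assigned to no other gene, and both sides are close to the limit of 1000000 bp of the authors' assignment. No Epha7 peak lay within 100 kb at either stage.

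The EphB receptors Ephb1 and Ephb2, whose main ligands are ephrins of the B class, had few peaks, all downstream of the TSS and all more than 50 kb away. Ephb1 held 2 peaks at E16.5, 142825 and 321385 bp downstream, which recurred at 142848 and 321373 bp in the E13.5 list. The E13.5 list had a further Ephb1 peak at 156182 bp. All were also assigned to 9630041A04Rik, whose TSS was nearer to the farther pair, at 94827 bp from the E16.5 peak and 94839 bp from the E13.5 peak. Ephb2 held a single peak at each stage, 86024 bp downstream at E16.5 and 86000 bp at E13.5. Lactbl1, on the opposite strand by the signs of the distances, shared it at 127372 and 127396 bp.

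The ephrins held the promoter-near peaks of the group. Within 50 kb of the TSS, 4 of the 10 genes had a peak at E16.5 (40.0%, 95% Wilson interval 16.8 to 68.7), and the same 4 at E13.5: Epha4, Efna5, Efnb1 and Efnb2. Of protein-coding genes, 15.1% had a peak within 50 kb at E16.5 and 10.8% at E13.5. Within 10 kb, Efna5 and Efnb2 had a peak at both stages, 2 of 10 genes, against 11.2% of protein-coding genes at E16.5 and 6.62% at E13.5. The same 2 genes had one between 5 kb upstream and 1 kb downstream, the domain in which the authors assigned peaks to every gene, against 10.2% at E16.5 and 5.51% at E13.5. Within 100 kb, 7 of 10 genes had a peak at each stage, against 17.9% at E16.5 and 14.3% at E13.5, with Epha3, Epha5 and Ephb2 joining the 4. The genes were proposed with results of these lists in view, so the excess over that share is a description. Shares within 10, 50 and 100 kb count assigned peaks only. Outside the domain from 5 kb upstream to 1 kb downstream they can also depend on how closely genes are spaced, which was not tested. Only Efnb2 had a promoter peak, here within 1 kb of the TSS, in both lists. That is 1 of 10 genes (95% Wilson interval 1.79 to 40.4%), near the 9.42% of protein-coding genes at E16.5 and the 4.93% at E13.5.

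**Figure D3:**
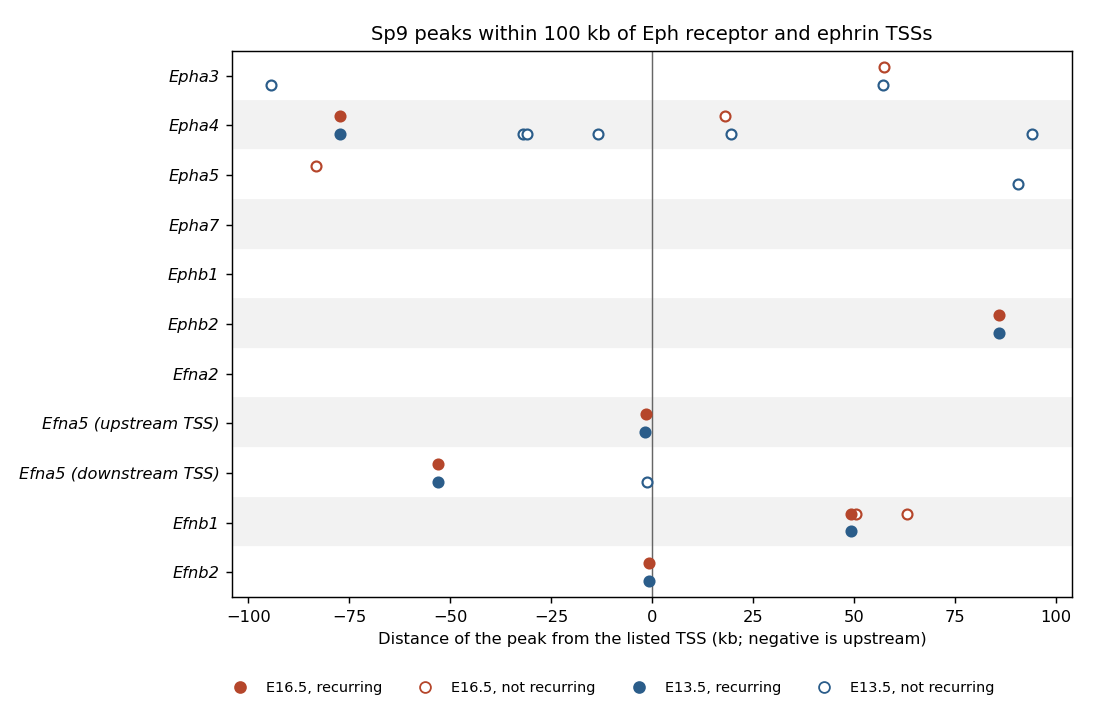
The same peaks are drawn within 100 kb of each TSS, with E16.5 above E13.5 and recurring peaks filled. At Epha4 the 3 upstream peaks within 50 kb are in the E13.5 row only, while at Efnb2, Efna5 and Efnb1 the nearest E16.5 peaks have E13.5 partners.

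Efnb2 encodes ephrin-B2, a transmembrane ligand known for vessel and neural boundary formation. It held 4 peaks at each stage, and 3 recurred. Its promoter peak lay 713 bp upstream at E16.5 and 664 bp upstream at E13.5. The same peak was assigned to 4921522P10Rik and lay nearer to that TSS, 315 bp upstream of it at E16.5 and 364 bp at E13.5. By the signs of the distances the 2 genes run in opposite directions from TSSs 1028 bp apart, and the peak was between them, so its assignment cannot be settled from distance. The other recurring Efnb2 peaks lay 233954 and 269170 bp downstream at E16.5, with E13.5 partners at 233945 and 269157 bp. Single peaks without a partner lay 429028 bp downstream at E16.5 and 283876 bp downstream at E13.5.

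Efna5 encodes ephrin-A5, a lipid-anchored ligand that repels axons in topographic maps. It appears in 2 rows of each list, with TSSs 274610 bp apart by the peak they share, here called the upstream and the downstream TSS. The upstream TSS had a peak 1595 bp upstream at E16.5 and 1620 bp upstream at E13.5, a recurring pair. A peak between the TSSs recurred too, at 221655 bp downstream of the upstream TSS at E16.5 and 221591 bp at E13.5. Counted from the downstream TSS it lay 52955 bp upstream at E16.5 and 53019 bp at E13.5. The last recurring pair lay 529794 bp downstream of the downstream TSS at E16.5 and 529803 bp at E13.5. In the E13.5 list only, a peak lay 1182 bp upstream of the downstream TSS, just outside the promoter limit, and another 290868 bp upstream of the upstream TSS, shared with Fbxl17. Efna5 thus held 3 distinct peaks at E16.5 and 5 at E13.5.

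Efnb1 encodes ephrin-B1, a transmembrane ligand from the X chromosome, and was the member with more peaks at E16.5. Its peaks lay 49218, 50464 and 63053 bp downstream at E16.5 and 49209 bp downstream at E13.5. The peak near 49 kb recurred with a difference of 9 bp and lay just within the 50 kb window, while the one at 50464 bp lay just outside it. All of these were also assigned to Pja1, a ubiquitin ligase gene, whose TSS was 285324, 284078 and 271489 bp away at E16.5 and 285333 bp away at E13.5. Efna2, which encodes ephrin-A2, another lipid-anchored ligand, was in neither list.

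Upstream sequence is shown for the ephrin genes with a promoter-near peak at both stages and for Efna2 as the member without an assigned peak. It is also shown for Ephb3, a receptor outside the 10 genes with a peak within 250 bp of its listed TSS at both stages. Factors of the SP family are known to bind GC boxes (GGGCGG, or CCGCCC on the other strand) and, less strongly, CACCC boxes (CCACCC or GGGTGG). Each window is the 250 bases before a start in RefSeq on build GRCm38.p6, another build than the lists', and its start need not be the TSS from which the lists count. Efnb2 is chr8:8661243-8661492 on the minus strand, Efna5 is chr17:62881318-62881567 on the minus strand, Efna2 is chr10:80179232-80179481 on the plus strand and Ephb3 is chr16:21204545-21204794 on the plus strand. Sequences run 5′ to 3′, with both kinds of box in capitals:
Efnb2: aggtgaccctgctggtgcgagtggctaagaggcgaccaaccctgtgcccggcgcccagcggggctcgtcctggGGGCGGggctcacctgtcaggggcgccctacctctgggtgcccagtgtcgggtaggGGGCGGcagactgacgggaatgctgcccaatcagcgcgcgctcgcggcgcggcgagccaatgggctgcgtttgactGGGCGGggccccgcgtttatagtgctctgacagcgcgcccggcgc
Efna5: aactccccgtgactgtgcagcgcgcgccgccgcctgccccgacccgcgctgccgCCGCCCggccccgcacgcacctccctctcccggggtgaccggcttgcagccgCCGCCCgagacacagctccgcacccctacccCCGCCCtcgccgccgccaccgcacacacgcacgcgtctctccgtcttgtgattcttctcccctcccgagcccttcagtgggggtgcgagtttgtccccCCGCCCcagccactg
Efna2: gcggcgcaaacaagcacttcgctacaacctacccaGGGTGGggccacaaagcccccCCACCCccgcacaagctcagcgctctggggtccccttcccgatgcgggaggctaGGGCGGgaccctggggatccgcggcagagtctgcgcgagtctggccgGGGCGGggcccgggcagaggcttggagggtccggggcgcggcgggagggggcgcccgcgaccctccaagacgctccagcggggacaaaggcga
Ephb3: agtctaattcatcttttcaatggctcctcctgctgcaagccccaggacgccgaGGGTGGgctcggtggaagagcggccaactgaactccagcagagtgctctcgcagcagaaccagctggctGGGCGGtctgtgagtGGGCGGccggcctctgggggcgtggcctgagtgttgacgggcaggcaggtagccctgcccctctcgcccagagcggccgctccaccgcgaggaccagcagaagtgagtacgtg

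The Efnb2 window held 3 GC boxes and no CACCC box, and the Efna5 window 4 GC boxes and no CACCC box. The Efna2 window, without an assigned peak, held 2 of each, and the Ephb3 window 2 GC boxes and 1 CACCC box. No GC box overlapped a CACCC box in these windows. The Efnb2 and Efna5 peaks were centred farther upstream than the printed bases by the lists' own distances, and peak widths are not given. All 10 genes matched the RefSeq table, with 11 windows, of which 2 belong to Epha7 and overlap. A GC box was present for 6 of the 10 genes and a CACCC box for 5. Of the 11 other Eph and ephrin genes with a window, 10 had a GC box and 4 a CACCC box. The boxes were found in 32.7% and 28.1% of all 32851 windows of that length, counted by window and not by gene. A match is a description of letters in the window and not a binding site.

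**Figure D4:**
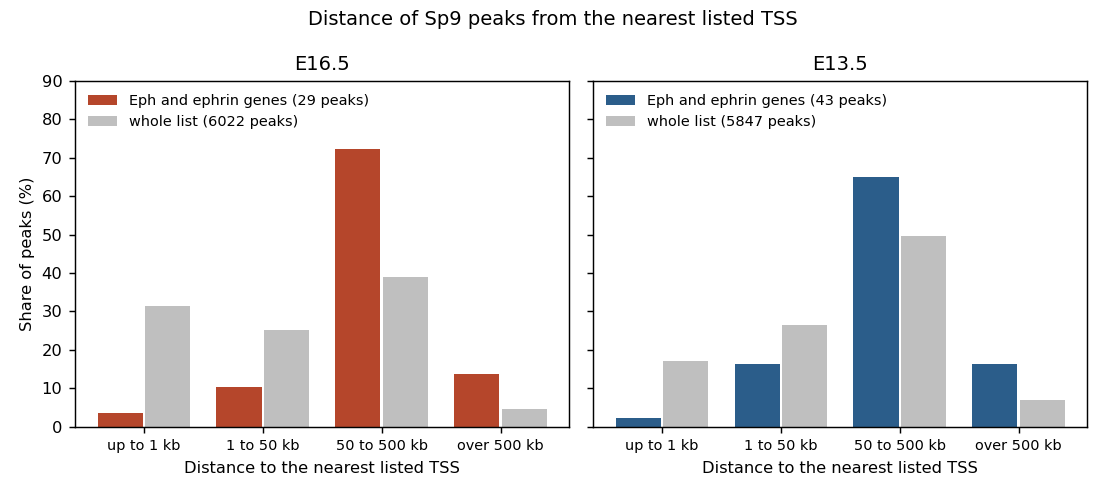
Bars give the percentage of peaks in each class of distance to the nearest listed TSS, for peaks of the Eph and ephrin genes (coloured) and for the whole list (grey), with E16.5 on the left and E13.5 on the right. The class from 50 to 500 kb holds 72.4% of these genes' peaks at E16.5 and 65.1% at E13.5, against 39.1% and 49.6% of the whole lists.

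Counted from the nearest listed TSS of any gene, 25 of the 29 E16.5 peaks lay more than 50 kb away (86.2%, 69.4 to 94.5), as did 35 of the 43 E13.5 peaks (81.4%, 67.4 to 90.3). In the whole lists 43.6% of E16.5 peaks and 56.5% of E13.5 peaks lay that far. The median distance to the nearest TSS was 135 kb at E16.5 and 132 kb at E13.5 for these genes, and 32.1 and 68.6 kb for the whole lists. Promoter peaks made up 3.45% of these genes' peaks at E16.5 and 2.33% at E13.5, against 31.4% and 17.0%. Beyond 5 kb upstream and 1 kb downstream the authors assigned a peak only to genes flanking it, so genes with wide gene-free surroundings collect far peaks; the part of this in the shares was not tested. Of the 29 peaks at E16.5, 23 had the assigned Eph or ephrin gene as their nearest listed TSS, and at E13.5 32 of 43 did.

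The other 12 Eph and ephrin genes had fewer peaks than the main group of Eph and ephrin genes. The main group was proposed with results of these lists in view, so this contrast is a description only. Any assigned peak was held by 3 of 12 at E16.5 (25.0%, 8.89 to 53.2) and 4 of 12 at E13.5 (33.3%, 13.8 to 60.9). Of protein-coding genes, 23.6% held one at E16.5 and 20.7% at E13.5. The other 12 were thus not below that background at either stage. Within 50 kb, 2 of 12 had a peak at E16.5 (16.7%, 4.70 to 44.8) and 3 of 12 at E13.5 (25.0%, 8.89 to 53.2), against 15.1% and 10.8% of protein-coding genes at these stages, and both intervals include those shares. Ephb3, a receptor for B-class ephrins, had a promoter peak 221 bp upstream at E16.5 and 177 bp upstream at E13.5, and a recurring peak 135364 bp downstream at E16.5 and 135359 bp at E13.5. The remaining Ephb3 peak, 6166 bp downstream, was seen at E16.5 alone. The downstream Ephb3 peaks were all shared with Vps8. The recurring one lay nearer to that gene, 82999 bp from its TSS at E16.5 and 83004 bp at E13.5. Epha8, a receptor of the A class, had a peak 12895 bp downstream at E16.5 that recurred at 12857 bp, shared with the complement gene C1qa. Ephb6, a receptor without kinase activity, had a peak 12431 bp upstream in the E13.5 list only, shared with Prss2. Epha6 had far peaks only, of which those 395915 and 763242 bp downstream at E16.5 recurred at 395958 and 763269 bp. These recurring peaks were shared with Arl6. The farther pair lay nearer to Arl6, 202615 bp from its TSS at E16.5 and 202588 bp at E13.5. The genes Epha1, Epha2, Epha10, Ephb4, Efna1, Efna3, Efna4 and Efnb3 had none in either list.

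Among 38 genes whose products work with Eph receptors or ephrins (adaptors, exchange factors, kinases, proteases and co-receptors), 13 had a peak within 50 kb at E16.5 (34.2%, 21.2 to 50.1) and 10 at E13.5 (26.3%, 15.0 to 42.0), against 15.1% of protein-coding genes at E16.5 and 10.8% at E13.5. Of these, 5 had one at both stages, 8 at E16.5 only and 5 at E13.5 only. The same split over all protein-coding genes was not computed, so whether it is particular to the partner genes is unknown. The partner genes too were chosen with earlier results of these data known, so their shares are a description. Shares within 50 kb can also depend on how closely genes are spaced, which was not tested, and the intervals are no test against the background. Chn1 encodes alpha-chimaerin, a Rac GTPase-activating protein that acts downstream of Epha4, and had a peak 3315 bp upstream at E16.5 that recurred at 3309 bp. Kalrn, which encodes an exchange factor, had one 22468 bp upstream at E16.5 and 22470 bp at E13.5. Rasa1, a Ras GTPase-activating protein, had a promoter peak 240 bp upstream at E16.5 and 305 bp at E13.5. Dab1, an adaptor of reelin signalling, had a peak 17390 bp downstream at E16.5 that recurred at 17472 bp. The adaptor gene Grb2 had peaks 123 bp upstream and 9200 bp downstream at E16.5 alone, and the exchange factor gene Itsn1 had peaks 33 bp upstream and 41626 bp downstream at E13.5 alone.

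No other protein-coding gene had the counts of Epha4 within 50 kb, 1 peak at E16.5, 4 at E13.5 and 0 recurring, among 6124 genes with a peak in either list. Epha4 was picked as the member with most peaks within 50 kb over both lists, so this is a description only. Closest by Euclidean distance over these 3 counts were Sfi1, Fezf1 and Uspl1, each with a difference of 1 in a single count. Fezf1 had 1 peak at E16.5, 4 at E13.5 and 1 recurring, while Sfi1 and Uspl1 each had 1, 3 and 0. The likeness covers the counts within 50 kb only. Over all assigned peaks Epha4 had 7 at E16.5 and 14 at E13.5. Sfi1 had 7 and 6, Fezf1 2 and 5, and Uspl1 1 and 3. The likeness rests on 2 libraries and counts this small.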

How the data were processed

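Per the labels' protocols, dissected tissue was cross-linked and its chromatin sheared before antibody and beads pulled down DNA bound by Sp9. Tools listed in the submitters' processing notes, with no roles, are MACS2 2.1.0, BWA 0.6.2, CASAVA 1.8.2 and bcl2fastq 1.8.4, and the build is mm9; a threshold for peaks was not found in the sources used here. The deposited values are text: numbered peaks with signed TSS distances. Per the file headers, the authors assigned peaks by domains from 5000 bp upstream to 1000 bp downstream of a TSS, extended up to 1000000 bp, with curated domains. Lettered entries of a number were counted as 1 peak. The 2 rows of Efna5 were kept apart by TSS and its peaks counted once.

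Names were matched to a RefSeq table (GRCm38.p6, names only): 5330 of 5463 at E16.5 and 4698 of 4826 at E13.5. Its 21900 protein-coding genes were the background. Shares carry 95% Wilson intervals (Python 3.11.15, scipy 1.17.1, matplotlib 3.10.9). Without coordinates, the planned interval overlap was replaced by TSS distances. The matching was run on simulated lists in which kept peaks moved by less than the limit and all others far beyond it. That setting checks the code only and cannot show false or missed matches near the limit.

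The genes, lists and limits were chosen with earlier results of these data known. Named were all members, other family genes with a peak, and genes sharing a peak with any of them. The 6 partner genes with most peaks within 50 kb (ties to the nearest) and the 3 genes most like Epha4 were named too. Alternatives were other windows, matching limits, nearest TSS, lettered entries, another background and, added after the data were seen, leaving out Epha4 or the downstream Efna5 row.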

Additional observations from a re-analysis of the deposited data

How the results depend on the processing

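The counts within 50 kb depend on the window by construction. The 4 genes at each stage became 2 within 10 kb and 2 from 5 kb upstream to 1 kb downstream, 7 within 100 kb and 9 at any distance, at E16.5 and at E13.5 alike; at any distance they were also 9 when only peaks with the gene as nearest TSS were kept. Distinct peaks within 50 kb, 4 at E16.5 and 8 at E13.5, became 2 and 3 within 10 kb, 11 and 15 within 100 kb, and 29 and 43 at any distance, of which 23 and 32 had the gene as nearest TSS. Without Epha4 they were 3 and 4, so 4 of the 8 E13.5 peaks were those of Epha4. The 1 gene with a promoter peak became 0 within 500 bp and 2 within 2.5 kb at both stages. The other family and partner genes with a peak within 50 kb, 15 at E16.5 and 13 at E13.5, became 8 and 6 within 10 kb. Within 100 kb they were 18 and 19, and from 5 kb upstream to 1 kb downstream 8 and 5. The 22 recurring peaks became 20 within 100 bp, 23 within 500 bp and 23 within 1 kb; they were 16 without Epha4, 16 by nearest TSS and 21 without the downstream Efna5 row. Without predicted genes the background within 50 kb was 16.1% at E16.5 and 11.5% at E13.5. No paired analysis was possible because each stage has 1 ChIP library. Depth and peak strength are unknown, so a peak in 1 list only may be a threshold effect, which was not tested.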
